A study of Homo sapiens with 12 samples.

Results

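The transcripts described here encode the human telomerase proteins TERT and DKC1 and the 6 shelterin proteins TERF1, TERF2, TERF2IP, TINF2, ACD and POT1. The genes were taken by symbol from the 2 deposited gene tables, 1 for each clone. All 8 had a row in both, among 15612 genes in the clone 1 table and 16848 genes in the clone 2 table. RNA-seq had been done on RCH-ACV, an established human B-cell precursor acute lymphoblastic leukemia line that carries a pre-B-cell receptor. The 12 libraries fell into 4 groups of 3: dasatinib-resistant clone 1, dasatinib-sensitive clone 1, dasatinib-resistant clone 2 and dasatinib-sensitive clone 2. Resistant cells were grown in rising doses of dasatinib, a SRC and ABL kinase inhibitor, to a maximum of 1 µM, and their sensitive counterparts with 0.1% DMSO as vehicle. Each group is thus 1 subline, and its 3 libraries are RNA isolations from that subline at separate times, not separate cell lines.

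The value used is the deposited mean normalized count of a gene, which the authors averaged over the 6 libraries of a clone, 3 resistant and 3 sensitive. It has no value per library, so no SD, no n and no test can be given, and it cannot show whether resistant and sensitive cells differed. Libraries of each clone formed a set of their own and were normalized apart from the other set. Clone and set thus cannot be told apart. Each mean also mixes a resistant with a sensitive subline, so a ratio of means between clones can stem from a single subline. Which sublines carry such a ratio was not tested. Depth per library is unknown from these values. In bulk RNA, fewer cells with a transcript and less of it per cell cannot be told apart either.

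Telomerase is a ribonucleoprotein that adds telomeric repeats to chromosome ends. TERT is its reverse transcriptase, TERC its RNA template, and DKC1 (dyskerin) the pseudouridine synthase that binds and stabilizes TERC and other box H/ACA RNAs. Most somatic cells keep TERT silent, whereas lymphoid progenitors, activated lymphocytes and most leukemias express it. Shelterin is the protein complex that coats the repeats and hides chromosome ends from the DNA damage response. TERF1 and TERF2 bind double-stranded repeats, TERF2IP (RAP1) rides on TERF2, TINF2 (TIN2) bridges both to ACD (TPP1), and ACD carries POT1, which binds the single-stranded overhang, and recruits telomerase.

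The start regions of 4 members are shown because they belong to the most and the least abundant of the 8 transcripts, DKC1 and POT1, and to the 2 genes of the long arm of chromosome 16 with an entry, TERF2IP and ACD. They are the 150 bases before the annotated start from RefSeq GRCh38.p14, read 5′ to 3′ on the strand of the gene, at chrX:154762714-154762863 (+) for DKC1, chr16:75647623-75647772 (+) for TERF2IP, chr16:67660261-67660410 (-) for ACD and chr7:124929826-124929975 (-) for POT1. Capitals mark matches on either strand to the GC box (GGGCGG or CCGCCC), the ETS motif (CCGGAAG or CTTCCGG), the cyclic AMP response element (TGACGTCA) or the E-box (CACGTG), and no match overlapped another.
DKC1: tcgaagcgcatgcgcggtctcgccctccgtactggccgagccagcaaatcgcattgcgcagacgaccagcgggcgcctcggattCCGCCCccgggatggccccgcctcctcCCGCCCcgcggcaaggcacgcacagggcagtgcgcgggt
TERF2IP: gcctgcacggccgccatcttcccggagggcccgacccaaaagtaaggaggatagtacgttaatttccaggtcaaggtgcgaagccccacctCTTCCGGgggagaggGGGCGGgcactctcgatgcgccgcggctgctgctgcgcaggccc
ACD: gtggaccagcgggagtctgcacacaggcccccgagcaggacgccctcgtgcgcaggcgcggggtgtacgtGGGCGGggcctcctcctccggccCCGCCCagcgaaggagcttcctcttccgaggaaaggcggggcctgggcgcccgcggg
POT1: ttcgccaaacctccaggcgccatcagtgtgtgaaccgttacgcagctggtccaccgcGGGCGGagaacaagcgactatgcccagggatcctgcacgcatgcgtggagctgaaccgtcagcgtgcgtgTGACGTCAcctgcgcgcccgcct
All 4 windows are GC-rich, with 73.3% G and C in DKC1, 66.7% in TERF2IP, 76.0% in ACD and 64.7% in POT1, beside a median of 59.3% over 27305 promoters. A GC box was present in each, and in 36.7% of all promoters. DKC1 and ACD held 2 GC boxes each, and TERF2IP and POT1 held 1. TERF2IP alone of the 4 had the ETS motif, found in 7.18% of all promoters, and POT1 alone had the cyclic AMP response element, found in 1.51%. None of the 4 held the E-box, found in 4.68% of all promoters. A match is a stretch of letters and no measured binding, and 6 of the 8 members had an entry.

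RCH-ACV cells of both clones carried TERT mRNA at a level above that of the median listed gene. TERT had a mean normalized count of 2428 in clone 1 and 2561 in clone 2. Per kb of coding length, over the 13780 and 14693 genes of the tables with such a length, that placed TERT at the 69.2nd percentile in clone 1 and at the 66.5th in clone 2. On counts not divided by length it was at the 89.3rd and the 87.1st percentile, since the coding length of TERT, at 3.396 kb, is the longest of the 8. DKC1 was the most abundant of the 8 transcripts, at 5796 normalized counts in clone 1 and 7198 in clone 2, and stood at the 94.2nd and the 94.3rd percentile per kb. Per kb of coding sequence the level of DKC1 was 5.26 times that of TERT in clone 1 and 6.19 times in clone 2. The size of this gap depends on the length used. Per kb of the longest transcript DKC1 had 1882 against 604 for TERT in clone 1, and 2338 against 637 in clone 2. Not divided by length, DKC1 was 2.39 times TERT in clone 1 and 2.81 times in clone 2.

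Of the 6 shelterin transcripts, 5 stood above the median gene per kb of coding length in both tables and POT1 just below it. The double-strand binder TERF1 had 982 normalized counts in clone 1 and 1305 in clone 2. Its relative TERF2, which protects ends from fusion, had 1108 in clone 1 and 1798 in clone 2. Per kb of coding length the level of TERF2 was 0.914 times that of TERF1 in clone 1 and 1.12 times in clone 2, whereas per kb of the longest transcript TERF2 was above TERF1 in both clones, at 372 against 273 in clone 1 and 603 against 363 in clone 2. TERF2IP, the TERF2 partner, was the most abundant shelterin transcript, with 1562 normalized counts in clone 1 and 2438 in clone 2. The bridging protein TINF2 had 662 in clone 1 and 972 in clone 2. ACD, the telomerase recruiter, had 638 in clone 1 and 1006 in clone 2. POT1, the overhang binder, was lowest with 534 in clone 1 and 688 in clone 2, at the 45.8th and the 48.9th percentile per kb. Not divided by length it was at the 55.9th and the 58.9th percentile of all listed genes, and at the 42.4th and the 43.7th of those with a mean of at least 50.

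**Figure D1:**
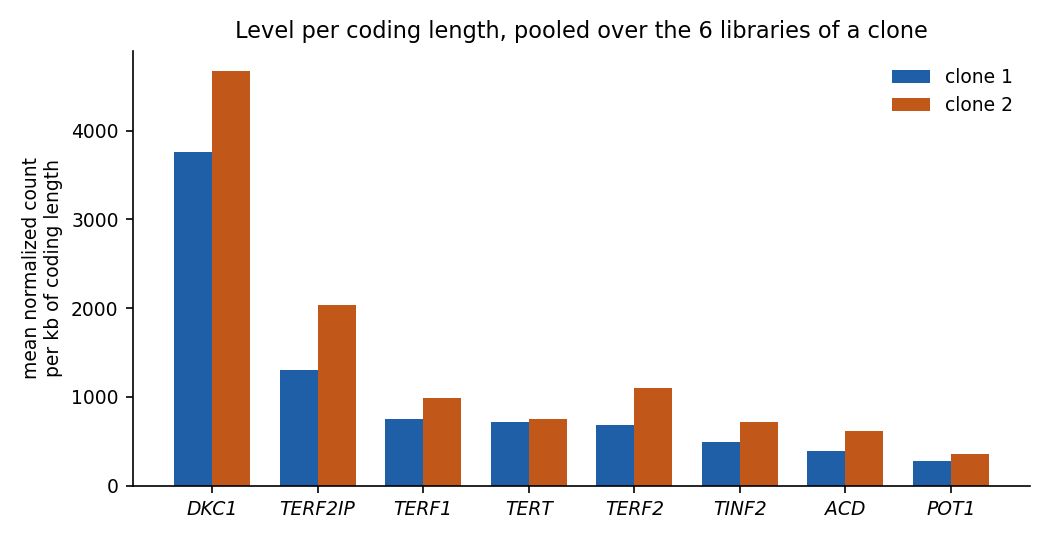
Mean normalized count per kb of coding length (y axis) for the 8 genes, with clone 1 left of clone 2. Each bar is 1 pooled mean over 6 libraries, without error bars because no value per library is used. DKC1 is highest at 3758 and 4668 per kb, and POT1 lowest at 281 and 361 per kb.

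The members were ordered per length. Divided by coding length, the levels in clone 1 were 3758 for DKC1, 1305 for TERF2IP, 746 for TERF1, 715 for TERT, 682 for TERF2, 489 for TINF2, 393 for ACD and 281 for POT1. In clone 2 they were 4668 for DKC1, 2037 for TERF2IP, 1106 for TERF2, 991 for TERF1, 754 for TERT, 718 for TINF2, 620 for ACD and 361 for POT1. DKC1 and TERF2IP thus led and TINF2, ACD and POT1 closed the order in both clones, and the middle 3 changed places. That exchange was seen with coding length alone. Per kb of the longest transcript TERT was at place 3 and TERF2 at place 4 in both clones. There TERF1 and ACD exchanged places 6 and 7 between the clones. Not divided by length, TERT, TERF2 and TERF1 were at places 2, 4 and 5 in both, and TINF2 and ACD exchanged places 6 and 7. With no spread over libraries, which neighbours in this order differ cannot be tested. TERF1, TERT and TERF2 lay within 746 to 682 per kb in clone 1, so their order there rests on small gaps. Per kb of the longest annotated transcript, in contrast, TERF1 stood below TINF2, at 273 against 305 in clone 1 and 363 against 448 in clone 2. DKC1 kept the first and POT1 the last place on the count scale, per coding length and per transcript length.

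Within shelterin, TERF2IP took the largest share of the summed levels per kb, 33.5% in clone 1 and 34.9% in clone 2. TERF1 took 19.1% in clone 1 and 17.0% in clone 2, and TERF2 17.5% in clone 1 and 19.0% in clone 2. TINF2 took 12.6% and 12.3%, ACD 10.1% and 10.6%, and POT1 7.21% and 6.20%, clone 1 before clone 2 in each case. The highest level was 4.65 times the lowest in clone 1 and 5.63 times in clone 2. These are levels of mRNA per kb, and protein amounts were not measured.

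The clones were next set side by side. The ratio used is the pooled mean in clone 1 over that in clone 2, divided by the median ratio over the 13917 genes listed in both tables with a mean of at least 10 in each, so that the typical gene is at 1. No member was beyond 1.5-fold, 0 of 8 higher in clone 1 and 0 of 8 lower, where 2.24% of all genes were higher and 2.7% lower by that rule. With counts as deposited, without this scaling, the median of all genes was 0.774, a shift of -0.37 on the log2 scale. TERF2 (0.616), ACD (0.634) and TERF2IP (0.641) then lay beyond 1.5-fold. The share of all genes beyond 1.5-fold on that scale was not computed, so these 3 are not read as a result about the members. Unless given as deposited, changes between clones are relative to the shift of the median gene, and each compares means that mix resistant and sensitive libraries.

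TERT had the highest ratio of the 8, at 1.22, above 92.7% of all genes. Among the 6194 genes in the members' range of means its ratio lay above 97.7%. DKC1 was at 1.04 and POT1 at 1.00, close to the median gene, and without the scaling TERT (0.948), DKC1 (0.805) and POT1 (0.777) were all below 1. TERF1 was at 0.972. The other 4 had ratios below 0.9, with TINF2 at 0.880, TERF2IP at 0.828, ACD at 0.819 and TERF2 at 0.796. Against the genes in the same range of means, of which the middle 90% spanned 0.869 to 1.16, TERF2IP, ACD and TERF2 lay below the span and TERT above it. Against all genes, whose middle 90% spanned 0.765 to 1.29, all 8 lay inside. The median of the 8 ratios was 0.926, beside 1.0 over all genes.

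**Figure D2:**
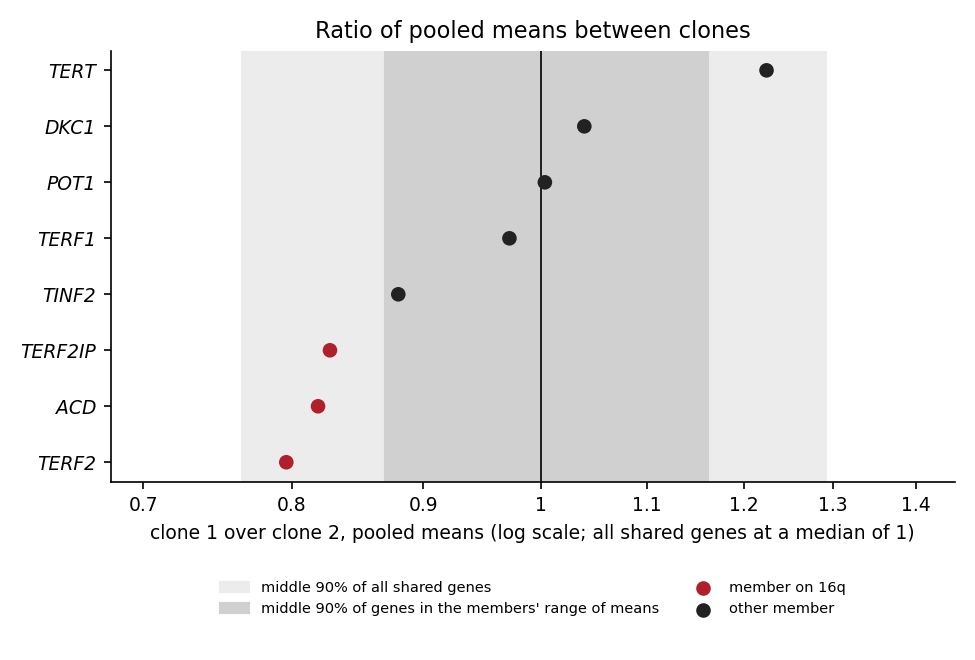
Pooled mean in clone 1 over clone 2 for each of the 8 genes (points, log x axis), with the median of all shared genes at 1. Pale and dark bands hold the middle 90% of all shared genes and of those in the members' range of means, and the 3 genes on 16q (red) sit lowest at 0.796 to 0.828.

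TERF2, TERF2IP and ACD, the 3 lowest ratios, are the 3 members on the long arm of chromosome 16. The start regions of TERF2IP and ACD are printed above, and share no motif of those searched but the GC box, which DKC1 and POT1 also held. TERF2 had no entry, and a link between motifs and ratios was not tested. The ratio was below 1 over most of the long arm of chromosome 16. Over 283 genes of 16q with a ratio the median was 0.869 and 90.1% were below 1, whereas over 353 genes of 16p the median was 1.01 and 43.9% were below 1. Of the other chromosomes, taken whole apart from chromosomes 8 and 16, none had a median under 0.985, the value of chromosome 21, and neither did either arm of chromosome 8. Among the other genes of 16q, TERF2 was at the 17.4th percentile, ACD at the 25.2nd and TERF2IP at the 31.2nd. Of the 20 nearest listed genes, 18 were below 1 for TERF2 (median 0.892), 17 for TERF2IP (median 0.859) and 20 for ACD (median 0.834). Each of the 3 lay within the span of its neighbours, and copy number of the arm was not measured.

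Of the remaining members, TERT, DKC1, TERF1 and TINF2 had neighbours with a median above 1. The 20 nearest listed genes of TERT had a median of 1.04 and spanned 0.719 to 1.40, and those of DKC1 had a median of 1.03 with a span of 0.912 to 1.16, so that each gene lay inside its span. The highest of the DKC1 neighbours was SNORA56, a small nucleolar RNA that lies within DKC1 itself. TERF1 was among neighbours with a median of 1.01. The neighbours of POT1 had a median of 0.935, with 15 of 20 below 1, while POT1 was at 1.00. TINF2, at 0.880, was below each of its 20 neighbours, which spanned 0.928 to 1.51. It was also at the 13.8th percentile of chromosome 14, whose 442 other genes had a median of 0.988.

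**Figure D3:**
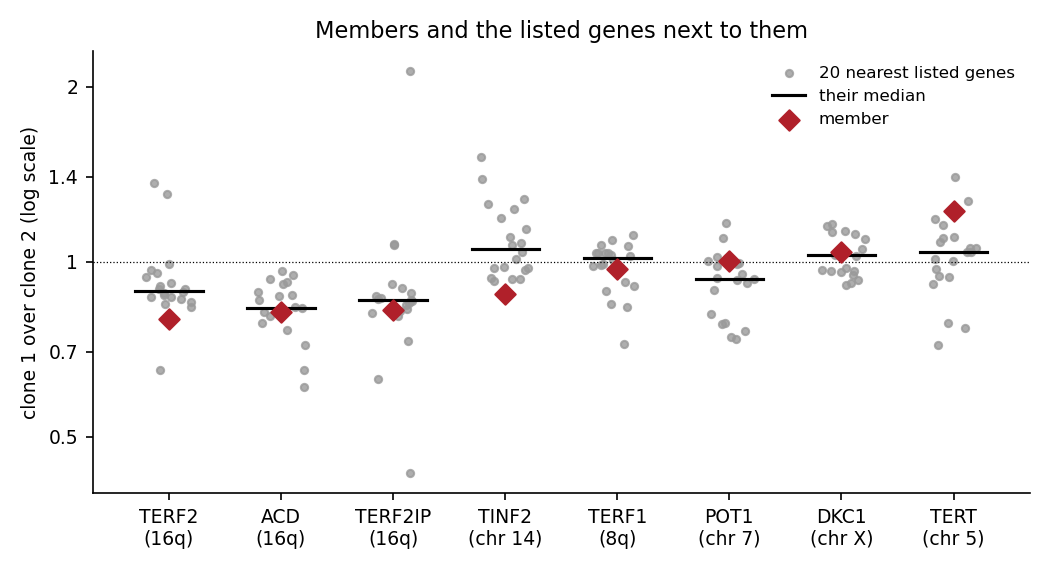
Ratio of pooled means, clone 1 over clone 2 (log axis), for each of the 8 genes beside its 20 nearest listed genes on the chromosome. Most neighbours of TERF2, TERF2IP and ACD lie below 1, and TINF2 lies below all of its own neighbours.

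Ratios between the levels per kb of 2 members of the same table do not depend on how the tables were scaled to each other. TERF2IP over TERF2, a pair whose proteins bind each other and whose genes both lie on 16q, was 1.91 in clone 1 and 1.84 in clone 2. ACD over POT1, also partners, was 1.40 in clone 1 and 1.71 in clone 2. TINF2 over POT1 was 1.74 in clone 1 and 1.99 in clone 2. TERT over TERF2 was 1.05 in clone 1 and 0.682 in clone 2. These 2 genes had the highest and the lowest clone ratio, so the gap of the pair follows from those values. TERT over TERF1, a pair without a 16q gene, was 0.959 in clone 1 and 0.761 in clone 2.

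A list of 36 other telomere genes gives the surroundings of the 8 in the pathway, and 35 of them had a value in both tables. TEN1, a subunit of the CST complex that guides fill-in of the C-rich strand, was not found by symbol in either clone and has no value here. The median ratio of the 35 was 1.01, with 21 above 1 and 14 below 1, beside 0.926 for the 8 members. The 2 medians are not alike in chromosome make-up. Of the 8 members, 3 lie on 16q, where the median ratio was 0.869, and none of the 35 does. Members off 16q ran from 0.880 for TINF2 to 1.22 for TERT. Beyond 1.5-fold, 1 gene was higher in clone 1 and 1 lower, where 2.24% of all genes were higher and 2.7% lower, so both counts are near the background. The higher was HMBOX1, a binder of double-stranded telomeric repeats, with 496 normalized counts in clone 1 and 391 in clone 2, a ratio of 1.64. The lower was TERC, the telomerase RNA, with 2.72 in clone 1 and 6.49 in clone 2, a ratio of 0.541, from means under the minimum of 10 that the ratios over all genes required. Mature TERC has no poly(A) tail, the libraries were made from mRNA, and a level this low carries large counting error, so the TERC values do not measure the amount of telomerase RNA.

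The 12 genes of telomerase assembly ran from 2.72 to 3372 normalized counts in clone 1 and from 6.49 to 4263 in clone 2, with a median ratio of 1.01, 8 above 1 and 4 below. Per kb of coding length NHP2 and NOP10, the small H/ACA proteins that join DKC1 on the RNA, were highest. NHP2 had 7347 per kb in clone 1 and 9287 in clone 2, and NOP10 had 5638 and 7299, so that both stood above DKC1 itself. Per kb of the longest transcript NOP10 was only slightly above DKC1, at 1954 against 1882 in clone 1 and 2530 against 2338 in clone 2. NHP2 stayed higher there, at 3899 and 4928. Not divided by length both were below DKC1, which had 5796 in clone 1 and 7198 in clone 2. NHP2 then had 3372 and 4263, and NOP10 had 1083 and 1401. TEP1, a telomerase-associated protein also found in vaults, was the lowest with a coding length, at 186 per kb in clone 1 and 241 in clone 2. NAF1, an assembly factor that leaves the RNP before it matures, had 367 and 394, at a clone ratio of 1.21 (0.933 as deposited).

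Of the CST complex and polymerase alpha-primase, which make the C-rich strand, 6 of 7 genes were listed, with clone ratios from 0.929 to 1.05, 3 above 1 and 3 below. POLA2, the second subunit of polymerase alpha, had 730 per kb in clone 1 and 902 in clone 2, and the primase subunit PRIM1 had 505 and 666. STN1, listed under its older symbol OBFC1, and its partner CTC1 were lowest, STN1 with 184 per kb in clone 1 and 256 in clone 2, and CTC1 with 195 and 255. The overhang binder POT1, with 281 and 361 per kb, was thus nearer to STN1 and CTC1 than to the double-strand binders.

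The 14 shelterin partners and end-processing genes had a median clone ratio of 1.01, with 7 above 1 and 7 below. NBN, of the MRN complex that senses broken ends, was highest with 1097 per kb in clone 1 and 1428 in clone 2, and the tankyrase TNKS2, which modifies TERF1, had 596 and 746. SLX4, a nuclease scaffold that binds TERF2, was lowest with 75.8 per kb in clone 1 and 102 in clone 2, and ZBTB48 (TZAP), a telomeric zinc finger protein, had 236 and 327. Of the 3 chromatin genes, the histone chaperone DAXX had 923 per kb in clone 1 and 1146 in clone 2, its partner ATRX 322 and 397, and the remodeller SMARCAL1 192 and 247. Their ratios were 1.04 for DAXX, 1.05 for ATRX and 1.00 for SMARCAL1. Loss of ATRX or DAXX is known from cancers that maintain telomeres without telomerase, and both mRNAs were present beside TERT mRNA here. Presence of an mRNA does not show an intact protein, and how these cells maintain telomeres was not tested.

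Of the 2 list genes beyond 1.5-fold, HMBOX1 lies on the short arm of chromosome 8, where the median ratio over 157 genes was 1.11 and 23.6% were below 1, the highest median of the chromosomes and arms compared. The 3 other list genes of that arm were also above 1, with WRN, a RecQ helicase, at 1.29, the tankyrase TNKS at 1.13 and the telomerase inhibitor PINX1 at 1.12, although as deposited, without scaling, they were at 0.996, 0.873 and 0.870 and only HMBOX1 at 1.27 was above 1. These counts are descriptions of pooled means, and copy number was not measured. No gene of the list lay on 16q.

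**Figure D4:**
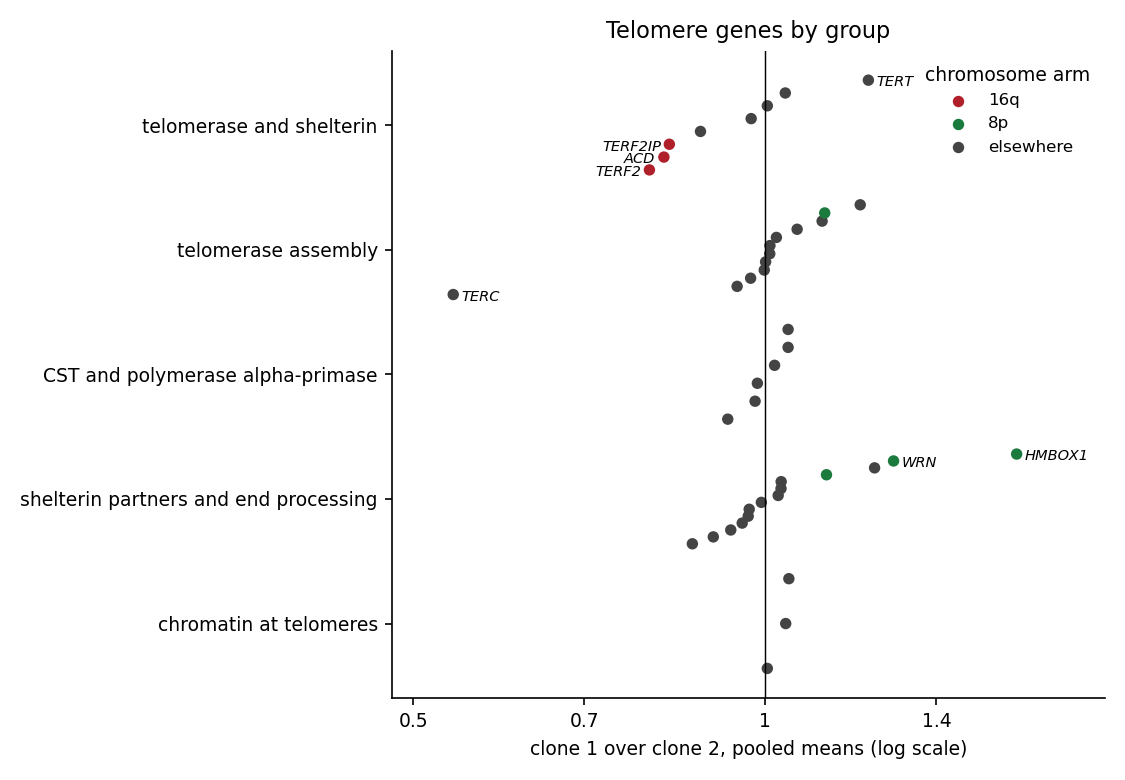
Ratio of pooled means, clone 1 over clone 2 (log x axis), for the 8 members and 35 other telomere genes by group, coloured by chromosome arm. HMBOX1 at 1.64 and TERC at 0.541 are the only genes of the list beyond 1.5-fold, and the 3 members on 16q form the low end of their group.

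Some reads of these genes may belong to overlapping genes or copies, because the sources used here give neither the strand setting of the authors' counting nor its handling of reads that match several places. TERF2IP shares 176 of its 3379 exon bases with KARS, the lysyl-tRNA synthetase gene on the opposite strand, which had 6709 normalized counts in clone 1 and 10182 in clone 2. KARS had a ratio of 0.851, close to the 0.828 of TERF2IP. ACD shares 58 of 3223 exon bases with CARMIL2, listed as RLTPR, on the opposite strand, with 853 normalized counts in clone 1, 1810 in clone 2 and a ratio of 0.609. DKC1 hosts the small nucleolar RNAs SNORA36A, with 7.52 and 7.77 normalized counts, and SNORA56, with 21.6 and 24.0, far below the host. TERF1 has 7 RefSeq pseudogenes and TERF2IP 1, none of them listed in the tables. The part of such reads in the values was not tested. KARS and CARMIL2 were also counted among the nearest listed genes of TERF2IP and ACD given above.

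The labelled cell type was checked against its markers. All 10 B-cell precursor markers were listed in both tables, from 1023 to 9233 normalized counts in clone 1 and from 1653 to 12008 in clone 2. Of 5 T and NK cell markers, CD3D, CD3E and CD4 were not listed, NKG7 had 192 in clone 1 and 208 in clone 2, and CD7 was listed in clone 2 alone with 1.65. The 4 myeloid markers ran from 2.82 to 615 in clone 1 and from 4.06 to 768 in clone 2, with CSF1R at the top and CD14 at the bottom, and neither of the 2 erythroid markers was listed. Their part in the telomere values was not tested.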

How the data were processed

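Stranded mRNA libraries were prepared from column-purified RNA. FastQC 0.10.1, Picard 1.107, bedtools 2.19.0, BWA (0.7.7-r441 and 0.6.2-r126), DESeq2 and SAMtools are named by the submitters, with hg19 as the build and without roles. Neither the gene annotation nor the strand setting of the counting is given in the sources used here. The deposited value used is a signal, the mean that the authors took over the 6 libraries of a clone of counts normalized for depth. The 7 other columns of each table hold the authors' comparison of resistant with sensitive cells (fold changes, their errors, test statistics, p-values and calls). They were neither used nor printed, so no comparison of resistant with sensitive cells is given. There were 0 columns of values per library.

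The 2 tables were joined by symbol, leaving out 2 rows each whose symbol was repeated, and computed on with Python 3.11.15, pandas 2.3.3 and numpy 2.4.6. Percentiles per kb are over the genes with a coding length, and were added after the data were seen. Other percentiles are over all listed genes unless a minimum mean is given. Coding length was taken from GENCODE release 29, which with RefSeq GRCh38.p14 also gave chromosome arm and gene order. No coordinate was converted between builds. Between clones, a gene beyond 1.5-fold was called, and 10 listed genes on each side were taken as neighbours. The calculation was tested on simulated data. All 8 members are named, and of the telomere list the 2 highest and 2 lowest of each group per kb, genes without a value and genes beyond 1.5-fold. Genes named beside these were chosen after their values were seen. The members and lists were chosen with earlier results of these data known. The neighbour, chromosome arm and matched-range descriptions were added after the data were seen. Alternatives were other minimum means, scalings, lengths and folds.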

Additional observations from a re-analysis of the deposited data

How the results depend on the processing

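With only genes of a mean of at least 10 ranked, the median percentile of the 8 members was 69.4 in clone 1 and 73.3 in clone 2, and with a mean of at least 50 it was 64.1 and 69.0, beside 72.6 and 77.4 over all listed genes. Per kb of coding length, an alternative added after the data were seen, it was 68.7 and 69.6. At a mean of at least 50 TINF2 (48.9) and ACD (47.7) in clone 1 and POT1 in both (42.4 and 43.7) were below the median gene. With the pooled means as deposited the median clone ratio was 0.717, beside 0.926, and 3 members (TERF2, ACD and TERF2IP) were beyond 1.5-fold, beside 0. That setting moves all genes by its own construction, and the share of all genes beyond 1.5-fold under it was not computed. Scaling the tables to the same sum gave 0.922 and a median over genes of at least 50 gave 0.926, both with 0 members beyond 1.5-fold. Beyond a ratio of 5 to 4 in either direction 1 member, TERF2, was called, where 6.32% of all genes were higher and 6.65% lower. With the sums made equal POT1 turned to 0.999, just under 1. Without division by length 10 of the 16 places in the order moved, and per kb of transcript 9 of 16.

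No paired analysis was possible because the values used are pooled means with no value per library. For the same reason leaving out each replicate was not run. No interval can be given, since counts per library are not used here.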
